A study of Homo sapiens with 7 samples.

Results

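The 6 regions described here were the HNF6 sites at the starts of ZNF341, KAT6A, DRAP1, NFAT5, KMT2A and PTDSS1, chosen by their HNF6 peak score on day 5 of pancreatic differentiation from the 250 distinct HNF6 regions of that day. They stood among 86081 listed regions in all. The study used CyT49, an established human embryonic stem cell line taken in vitro toward pancreas, and mapped transcription factors on chromatin by immunoprecipitation and sequencing (ChIP-seq). HNF6 was profiled on day 5 (gut tube endoderm, labelled GTE stage). HNF6 and GATA6 were profiled on day 10 (progenitors that carry NKX6.1, labelled PE stage), and NKX6.1 on day 13 (labelled PP stage). The sample titles of days 5 and 10 name CyT49, and those of day 13 name no line. No mutation, transgene or drug comparison was stated. Each factor and day had 1 library. Replicate error is therefore unknown for every value, and no test was run. The lists hold no expression data, so the labelled stages were not checked against marker genes.

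HNF6, also named ONECUT1, binds DNA through a cut domain and a homeodomain and takes part in the formation of liver, bile duct and pancreas. GATA6 belongs to the zinc finger factors of endoderm, and NKX6.1 to the homeodomain factors that mark the pancreatic progenitor and later the beta cell. The 6 genes are expressed in many cell types and are not known as pancreas markers. ZNF341 encodes a zinc finger factor that activates STAT3. DRAP1 encodes a subunit of the NC2 corepressor, which binds TBP on core promoters. NFAT5 encodes the factor of the response to hypertonic stress. KAT6A (MOZ) encodes a histone acetyltransferase and KMT2A (MLL) a histone H3K4 methyltransferase, and both genes are known from leukaemia translocations. PTDSS1 encodes phosphatidylserine synthase, a membrane lipid enzyme and the only one of the 6 products without a role in transcription.

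The sequences at the gene starts are shown because these are the promoters that the 6 regions are named for. RefSeq promoter windows (GRCh38.p14, 250 bases before to 50 after the gene start) matched 3 of the 6 genes, ZNF341, DRAP1 and KMT2A. All 3 lie on the plus strand, at chr20:33731746-33732045, chr11:65919176-65919475 and chr11:118436242-118436541. Capitals mark GGGCGG or its reverse complement CCGCCC, the core of SP-like sites, which was the only word of those searched that was found.
ZNF341: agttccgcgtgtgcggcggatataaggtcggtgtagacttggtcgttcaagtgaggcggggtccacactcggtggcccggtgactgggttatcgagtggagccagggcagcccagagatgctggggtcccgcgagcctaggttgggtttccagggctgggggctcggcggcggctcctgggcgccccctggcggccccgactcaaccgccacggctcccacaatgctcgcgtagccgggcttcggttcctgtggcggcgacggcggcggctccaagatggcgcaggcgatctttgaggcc
DRAP1: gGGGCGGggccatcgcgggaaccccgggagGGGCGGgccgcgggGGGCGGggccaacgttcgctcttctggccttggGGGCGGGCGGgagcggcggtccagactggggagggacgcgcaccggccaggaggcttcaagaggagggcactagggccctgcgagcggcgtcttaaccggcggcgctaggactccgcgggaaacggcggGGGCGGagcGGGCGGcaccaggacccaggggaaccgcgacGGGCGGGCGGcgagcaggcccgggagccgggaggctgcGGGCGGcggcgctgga
KMT2A: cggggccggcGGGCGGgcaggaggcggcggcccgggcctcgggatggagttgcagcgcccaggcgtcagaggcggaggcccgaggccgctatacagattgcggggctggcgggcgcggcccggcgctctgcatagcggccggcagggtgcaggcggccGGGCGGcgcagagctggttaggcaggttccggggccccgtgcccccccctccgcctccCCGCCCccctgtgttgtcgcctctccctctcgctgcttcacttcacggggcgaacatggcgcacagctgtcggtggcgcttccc

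All 3 windows were rich in G and C. GC content was 68.7% for ZNF341, 79.0% for DRAP1 and 76.3% for KMT2A, against a median of 58.7% (quartiles 47.0 and 68.0) over all 35116 windows. CpG dinucleotides numbered 31, 42 and 36 in these windows in that order, against a median of 14 (quartiles 4 and 28). Words were searched on both strands. The HNF6-like words ATCAAT and ATCGAT occurred in none of the 3 windows, and in 6.26% and 0.763% of all windows. The GATA-like AGATAA (10.3% of all windows) and the NKX6-like TTAATT (10.4%) were likewise in none of the 3. The same held for the NF-Y-like CCAAT (34.6%) and the ETS-like CCGGAAG (10.3%). GGGCGG was counted 10 times in the DRAP1 window, with copies that overlap each other, 3 times in that of KMT2A and 0 times in that of ZNF341, and was present in 44.95% of all windows. The windows and the ChIP-seq regions are on different builds, so how far they coincide was not determined. A word that is missing from a window says nothing of the sequence beyond it.

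On day 5 the ZNF341 region, chr20:32319809-32320220 (hg19, as are all region positions), had the highest peak score of the list, 991. The KAT6A region (chr8:41909404-41909794) followed with 929 and rank 2, and the DRAP1 region (chr11:65686623-65687057) with 893 and rank 3. These 3 stood clear of the rest, since the region of rank 4 had a score of 665. The NFAT5 region (chr16:69599590-69599944) had a score of 599 and rank 6, the KMT2A region (chr11:118306892-118307238) 530 and rank 8, and the PTDSS1 region (chr8:97273832-97274156) 483 and rank 11. The score is the authors' own value for a peak, its unit is unstated, and it was used only to rank regions within 1 list. Since it chose the regions, these ranks are a description. The next region below PTDSS1 was chr20:57463885-57464174, with a score of 475. Each of the 6 regions lay on the chromosome of its gene in RefSeq. Their distance from the gene start was not measured, because no hg19 annotation was used here.

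**Figure D1:**
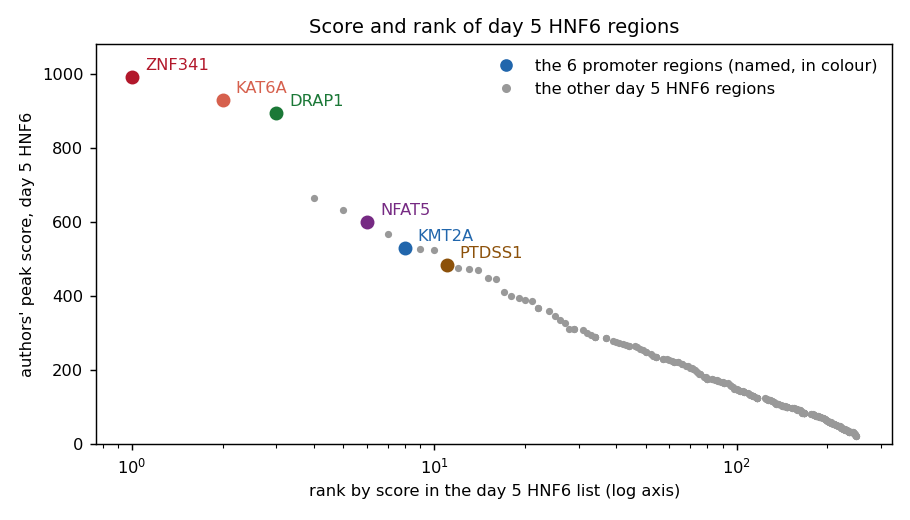
Authors' peak score (vertical axis) against rank in the day 5 HNF6 list (horizontal log axis) for all 250 regions, with the 6 promoter regions in colour and the 244 others in grey. ZNF341, KAT6A and DRAP1 lie between 893 and 991, and the other 3 promoter regions between 483 and 599, among unnamed regions of like score.

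The 6 regions were wide for the day 5 list. Widths were 412 bp at ZNF341, 391 bp at KAT6A, 435 bp at DRAP1, 355 bp at NFAT5, 347 bp at KMT2A and 325 bp at PTDSS1. The median was 373 bp, against 218.5 bp (quartiles 191 and 267) in the other 244 regions. Width comes from the same peak calls as the score and is no separate support. None of the 6 was split into several peaks on day 5.

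HNF6 was listed again at all 6 promoters on day 10. Among all 250 day 5 regions the share was 90.4% (Wilson 95% interval 86.1 to 93.5, for counting error only), so 6 of 6 is near that background. At ZNF341 the day 10 region, chr20:32319786-32320315, had a score of 1254, which is rank 1034 of 64919. At KAT6A (chr8:41909277-41909844) the score was 955 and the rank 1786. At KMT2A (chr11:118306597-118307261) it was 875, rank 2071. These 3 promoters thus lay in the first 3.19% of the much longer day 10 list. NFAT5 (chr16:69599104-69599949) had a score of 707 and rank 2937, and DRAP1 (chr11:65686652-65687046) a score of 658 and rank 3273. PTDSS1 (chr8:97273854-97274148) was the weakest, with a score of 238 and rank 11281.

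As score percentiles of the day 10 list, 5 of the 6 promoters lay close together. The values were 98.4 for ZNF341, 97.2 for KAT6A, 96.8 for KMT2A, 95.5 for NFAT5 and 94.96 for DRAP1, and PTDSS1 stood below them at 82.6. The median of the 6 was 96.1, against 84.2 (quartiles 61.4 and 99.3) for the 220 other day 5 regions found again on day 10. The promoter values lay within the quartiles of the others. DRAP1 and KMT2A exchanged places in the order of the 6 between the days, and the other 4 kept their place in the order. With 1 library a day, the error of these places is unknown.

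By midpoint, the day 10 regions lay within 38.5 bp of those of day 5 at 4 of the promoters. The median shift of the 6 was 37.25 bp in either direction. The midpoint moved by 7 bp at PTDSS1, 9 bp at DRAP1, 36 bp at ZNF341 and -38.5 bp at KAT6A, where a minus sign means toward lower coordinates on day 10. It moved by -136 bp at KMT2A and by -240.5 bp at NFAT5, against a median shift of 30.5 bp (quartiles 14 and 83.1) in either direction for the 220 others. The 2 larger shifts came with wider day 10 regions, at 665 bp for KMT2A and 846 bp for NFAT5, which were 1.92 and 2.38 times as wide as on day 5. Both reached further toward lower coordinates. The NFAT5 region was listed with 2 peaks in the same interval on day 10, and the other 5 with 1. Of all 64919 day 10 HNF6 regions, 1371 were listed with more than 1 peak. At ZNF341, KAT6A, NFAT5 and KMT2A the day 5 region lay wholly inside that of day 10, as at 147 of the 220 others (66.8%). At DRAP1 and PTDSS1 the day 10 region lay wholly inside that of day 5 and was narrower, at 0.91 times the width in both. That order was seen in 15 of the 220 other regions (6.82%). By day 5 score these 15 ran from rank 16 to rank 117, most of them at rank 41 or better. The share among strong day 5 regions alone was not counted, and the part of day 5 score was not tested.

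**Figure D2:**
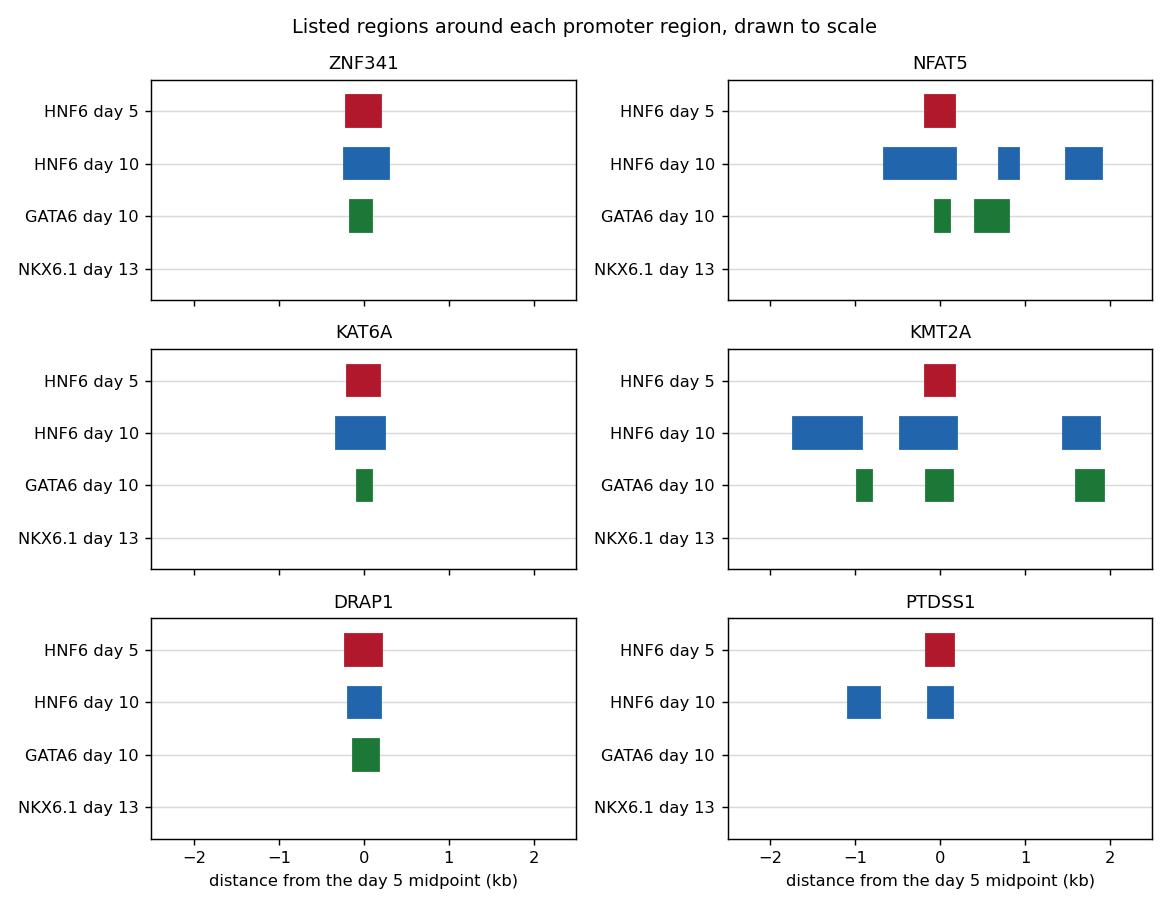
Listed regions of the 4 libraries around each promoter, drawn to scale as blocks against the distance in kb from the day 5 midpoint, with 1 row per library. The GATA6 blocks of ZNF341, KAT6A and DRAP1 stand alone under the HNF6 blocks, NFAT5 and KMT2A have further HNF6 and GATA6 blocks beside them, and PTDSS1 has a second HNF6 block at -0.895 kb and no GATA6 block.

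GATA6 was listed on day 10 at 5 of the 6 promoters, all but PTDSS1. Of all 250 day 5 regions, 66 (26.4%, 21.3 to 32.2) had GATA6, and of the 244 others 61 had it (interval of the share 19.98 to 30.8%). Every listed GATA6 region touched day 10 HNF6, which 226 of the 250 had, as had all 6 promoters. Regions without day 10 HNF6 could hardly count and lower these shares. GATA6 was more frequent at high HNF6 scores in general: 44.4% (42.7 to 46.1) of the 3254 day 10 HNF6 regions at or above score percentile 95 overlapped a listed GATA6 region, against 19.3% (18.6 to 20.1) of the 9733 between percentiles 80 and 95. DRAP1 (percentile 94.96, with GATA6) and PTDSS1 (82.6, without) lay in the lower of these ranges, and the other 4 promoters in the higher. The part of HNF6 score in the count of 5 was not tested. The GATA6 list is partial, with 6285 regions whose peak numbers ran to 19404, and every one of them touched day 10 HNF6. A promoter without a listed GATA6 region is therefore not shown to lack GATA6.

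The GATA6 regions at these promoters were of very different strength. KMT2A had the strongest (chr11:118306901-118307220, score 317, percentile 82.6 of the GATA6 list), and DRAP1 the next (chr11:65686712-65687014, score 201, percentile 72.0). ZNF341 lay below the median of the list (chr20:32319857-32320108, score 89, percentile 44.4). NFAT5 (chr16:69599709-69599887, score 61, percentile 29.4) and KAT6A (chr8:41909517-41909695, score 48, percentile 18.8) were weak. Of the 6 promoters, KAT6A thus ranked next to ZNF341 for HNF6 on both days and had the weakest of the 5 GATA6 regions. The median percentile was 44.4, against 37.4 (quartiles 23.1 and 73.0) for the GATA6 regions at 61 other day 5 regions. With the GATA6 list limited to regions above its median score, only DRAP1 and KMT2A kept a GATA6 region, 2 of 6. The share of all day 5 regions under this limit was not counted. The 61 others, with a median percentile of 37.4, would also lose many of their GATA6 regions.

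All 5 GATA6 regions sat wholly inside the day 5 HNF6 region. They were 179 bp wide at KAT6A and NFAT5, 252 bp at ZNF341, 303 bp at DRAP1 and 320 bp at KMT2A. Their midpoints lay within 32 bp of the day 5 midpoint, at -32 bp for ZNF341, -4.5 bp for KMT2A, 7 bp for KAT6A, 23 bp for DRAP1 and 31 bp for NFAT5. At 4 of the 5 the GATA6 midpoint was nearer to the day 5 HNF6 midpoint than the day 10 HNF6 midpoint was. The difference was little at ZNF341 (-32 against 36 bp), and DRAP1 was the exception (23 against 9 bp). A region wholly inside the day 5 region cannot lie far from its midpoint, so this count follows in part from the nesting. The same count was not made for the other day 5 regions. Such nesting was seen at 10 of the 61 other day 5 regions with GATA6 (16.4%, 9.16 to 27.6). The promoter regions are wider than most, and among the 23 others of at least 325 bp, a limit set after the data were seen, 7 had GATA6 (30.4%, 15.6 to 50.9) and 3 of these 7 were nested. The part of width in the nesting was not tested.

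**Figure D3:**
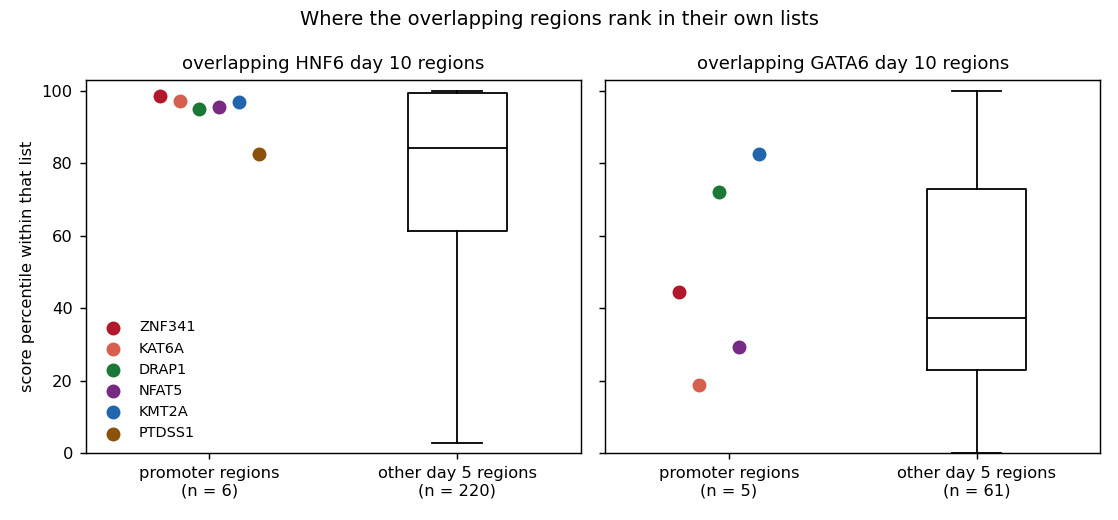
Score percentile within the day 10 HNF6 list (left panel) and the day 10 GATA6 list (right panel) of the regions that overlap each promoter (coloured points) and the other day 5 regions (box: median and quartiles, whiskers: lowest and highest). HNF6 percentiles are 94.96 or higher at 5 promoters and 82.6 at PTDSS1, while GATA6 percentiles run from 18.8 to 82.6.

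NKX6.1 was listed at 0 of the 6 promoters on day 13, where the share of all day 5 regions was 2.0% (0.857 to 4.60), so a count of 0 is near the background. Only PTDSS1 had an NKX6.1 region within 50 kb, at chr8:97284671-97284808 (score 82, percentile 72.1 of its list), which lay 10.7 kb from the promoter and overlapped no region of another list. For all day 5 regions 34.4% had an NKX6.1 region at that distance. The nearest NKX6.1 region was 94.6 kb away at ZNF341, 135.9 kb at NFAT5, 205 kb at KAT6A, 224 kb at DRAP1 and 280 kb at KMT2A. The NKX6.1 regions were also narrower, with a median width of 99 bp, against 261 bp for HNF6 and 285 bp for GATA6 on day 10. A narrower region has less room to overlap another, and the part of width in the count of 0 was not tested. Factor, day, library and region width all differ between the NKX6.1 list and the others and cannot be told apart.

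Within 50 kb of the promoters, 13 other HNF6 regions were listed on day 10 and 0 on day 5. Another day 5 region lay within that distance for 8.0% of all day 5 regions, so 0 of 6 is near the background. The 13 were spread as 3 each at ZNF341, KAT6A and PTDSS1, 2 each at NFAT5 and KMT2A and 0 at DRAP1. The share of promoters with any, 5 of 6, was near that of all day 5 regions, 85.2%. The median of 2.5 per promoter was also close to the 2 (quartiles 1 and 4) of the 244 others and to the 3 (quartiles 1 and 5) of all day 10 HNF6 regions. Of the 13, 3 overlapped a listed GATA6 region, against 9.66% of all day 10 HNF6 regions, and 0 overlapped NKX6.1. All 3 with GATA6 lay within 2 kb of NFAT5 or KMT2A.

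**Figure D4:**
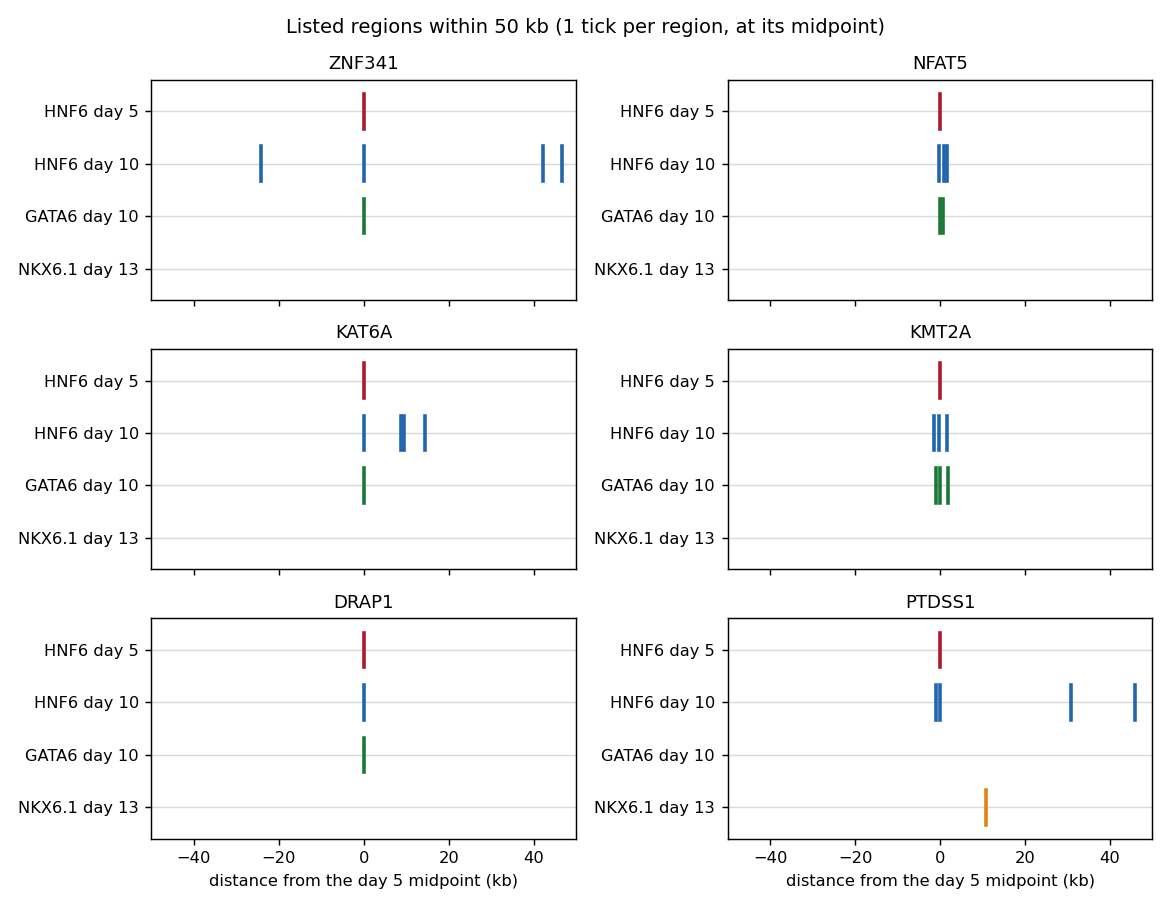
Midpoints of all listed regions within 50 kb of each promoter, with 1 row per library and the distance from the day 5 midpoint in kb on the horizontal axis. DRAP1 has no other region in any row, the regions of NFAT5 and KMT2A lie within 2 kb, and those of ZNF341, KAT6A and PTDSS1 reach 46.6, 14.4 and 46.0 kb.

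At DRAP1, on a stretch that in RefSeq also holds FOSL1, C11orf68 and SART1, no list held another region within 50 kb of the promoter region. For GATA6 this is hardly a separate observation, since every listed GATA6 region touched day 10 HNF6. The nearest other HNF6 region of day 10 lay 58.8 kb from the DRAP1 region. Of the 244 other day 5 regions, 36 likewise had no day 10 HNF6 neighbour within 50 kb. At KMT2A both day 10 neighbours were close and outranked the promoter itself. The region at -1.32 kb (chr11:118305334-118306152) had a score of 1406, rank 803, and was listed with 2 peaks. The region at 1.67 kb (chr11:118308518-118308950) had a score of 1305, rank 940. The promoter region between them had 875 and rank 2071. It alone of the 3 was in the day 5 list, from which it was chosen. Of the 13 day 10 neighbours of the 6 promoters, 0 overlapped a day 5 region.

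Each of the 3 KMT2A regions of day 10 overlapped a GATA6 region. GATA6 was strongest at the promoter, with a score of 317, against 157 (chr11:118308670-118308995) at the neighbour with higher coordinates and 36 (chr11:118306082-118306260) at the other. The order of HNF6 scores and that of GATA6 scores over the 3 regions thus differed. A day 10 HNF6 neighbour within 2 kb that outscored the region itself was found at 1 of the 6 promoters and at 6 of the 220 other day 5 regions with a day 10 region (2.73%, 1.26 to 5.82). The 1 promoter is KMT2A itself, and the 2 kb distance was chosen after seeing the data. The count therefore restates the observation above and is no separate support.

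NFAT5 and PTDSS1 also had HNF6 neighbours within 2 kb on day 10, so that 3 of the 6 promoters did, against 22.4% of all day 5 regions. The NFAT5 neighbours were weak. The region at 0.814 kb (chr16:69600460-69600701) had a score of 23 and lay at percentile 3.72 of the list, and the region at 1.69 kb (chr16:69601252-69601669) had a score of 73 at percentile 46.1. The first of these overlapped a weak GATA6 region at 0.609 kb (chr16:69600173-69600579, score 46, percentile 17.7). GATA6 neighbours within 2 kb were thus found at 2 of the 6 promoters, against 6.4% of all day 5 regions. No promoter had a GATA6 neighbour between 2 and 50 kb, so within 50 kb the count stayed at 2 of 6, against 26.0%. Every listed GATA6 region touched day 10 HNF6, so a GATA6 neighbour could hardly be listed where HNF6 was not. Between 2 and 50 kb only ZNF341, KAT6A and PTDSS1 had day 10 HNF6 neighbours. In RefSeq MIR1538 lies beside the start of NFAT5.

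At PTDSS1 the neighbour at -0.895 kb (chr8:97272916-97273283) had a score of 152 and percentile 72.4, below the 238 of the promoter. MTERF3, a gene of mitochondrial transcription, is the next RefSeq gene on that side. The other HNF6 neighbours of PTDSS1 lay 30.9 kb (score 134) and 46.0 kb (score 101) toward higher coordinates. The KAT6A neighbours formed a group at 8.83, 9.38 and 14.4 kb, with scores of 202, 173 and 45. Those of ZNF341 were distant, at -24.1 kb with a score of 127, at 42.1 kb with 142 and at 46.6 kb with 92. At both KAT6A and ZNF341 every neighbour was far weaker in score than the promoter, which had 955 and 1254, and carried neither listed GATA6 nor NKX6.1.

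**Figure D5:**
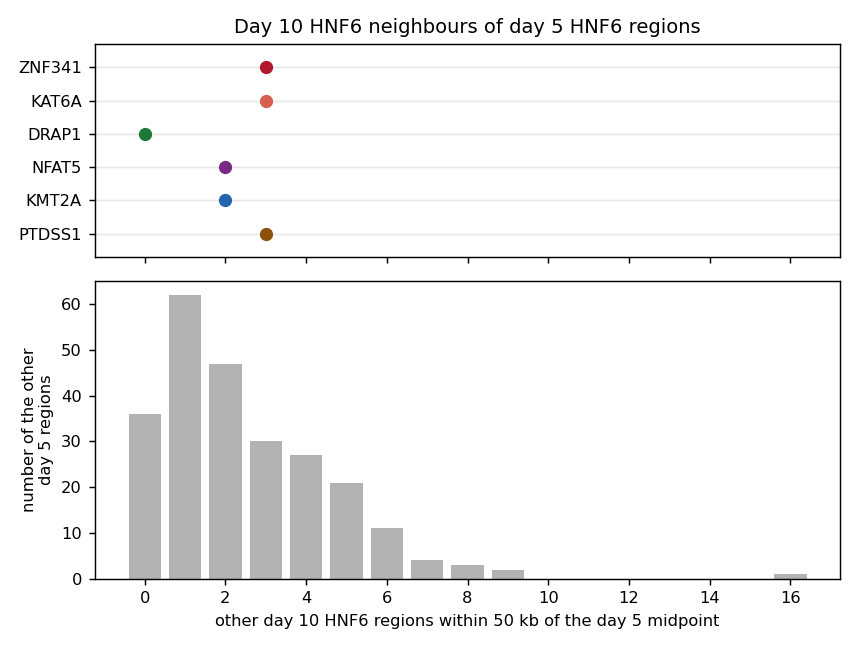
Number of other day 10 HNF6 regions within 50 kb (horizontal axis) for each promoter (upper panel, 1 point per gene) and for the other 244 day 5 regions (lower panel, bar height is the number of regions). The promoters have 0 to 3, inside the range of 0 to 16 of the others.

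Another 5 day 5 regions fell in the rank range of the promoters, at ranks 4, 5, 7, 9 and 10, and are named by position only. Whether any of these 5 lies at a gene start was not checked. They are therefore no contrast of promoters with other sites, and the 6 need not be all of the strongest promoter regions. All 5 had an HNF6 region on day 10, at percentiles from 84.8 to 100, 3 had a listed GATA6 region and 0 had NKX6.1. They were chr8:144679587-144679924 (score 665), chr19:461854-462230 (score 632), chr9:135285311-135285582 (score 567), chr22:37415489-37415779 (score 526) and chr19:1725520-1725861 (score 523). In these readouts they overlapped the range of the 6 promoters. The GATA6 region was nested in the day 5 region at chr22:37415489-37415779 and not at the other 2 with GATA6. The last of the 5 had 16 other day 10 HNF6 regions within 50 kb, the most of any day 5 region. The unnamed regions before it had 1, 3, 0 and 1 in the order given, and the 6 promoters had 3 at most.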

How the data were processed

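Of the 7 samples, 4 have a peak list and the 3 inputs were not analysed here. Bowtie2 2.3.4.1, MACS2 2.1.1.20160309 and hg19 are named without roles or settings, per the submitters' processing notes. Each list that the authors deposited gives position, peak name and a score of unstated unit for 1 library. The antibody tag gives HNF6 or GATA6, but an antibody against NKX6.1 stands in the extraction protocol of each sample, per the labels' protocols. Read depth is unknown, and a deeper library lists more weak regions.

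Rows with equal start and end were merged, keeping the highest score (250, 64919, 6285 and 14627 regions on day 5 for HNF6, then on day 10 for HNF6 and GATA6, and on day 13 for NKX6.1). Overlap was counted from 1 bp and neighbours by midpoint distance within 50 kb, leaving out overlapping regions. Counts over all day 5 regions equalled those of bedtools 2.31.1, and the code was tested on simulated data. Python 3.11.15, pandas 2.3.3 and statsmodels 0.14.6 (Wilson intervals) were used. The percentile is the share of regions in the same list with a score up to that of the region, ties at their mean rank. The 6 regions, the words and the named genes (the 6, and neighbours without values) were chosen with earlier results of these data known. The 2 kb distance, the width limit and the score percentile ranges were chosen after seeing the data. With 1 library per group no test was run.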

Additional observations from a re-analysis of the deposited data

How the results depend on the processing

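The counts of promoters with day 10 HNF6 (6), GATA6 (5) and NKX6.1 (0) were the same with overlap of 50% of the shorter region. With midpoints within 200 bp, HNF6 was counted at 5 of 6, without NFAT5, and the other counts were the same. With lists limited to regions above their median score, GATA6 was at 2 promoters in place of 5, and other GATA6 regions within 50 kb numbered 1 in place of 3. The matching shares of all day 5 regions under this limit were not counted. A window of 100 kb gave 22 other day 10 HNF6 regions in place of 13 and 2 NKX6.1 regions in place of 1, since it holds more sequence. A window of 25 kb gave 9 and 1. Percentiles over rows as deposited gave a median of 96.2 in place of 96.1. No paired analysis was possible because each group has 1 library and no test was run. Read depth is unknown and sets which weak regions are listed.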
